A study of Homo sapiens with 10 samples.

Results

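The 37 genes described here make the machinery of DNA replication and of the passage from G1 into S phase. They were chosen by name from a list of such genes and found in a deposited table of 62656 genes, each under its gene symbol, in RNA of PC3 cells. PC3 is a human prostate cancer cell line established from a bone metastasis. Cells were starved overnight and then kept for 24 h in RPMI-1640 with L-Glu and either 1 µM of GW3965 or the vehicle DMSO. GW3965 is a synthetic agonist of the liver X receptors (LXRs), nuclear receptors that respond to oxidised cholesterol and switch on cholesterol export. Each condition had 5 libraries, numbered 1 to 5 by their titles, and all 10 came from this single line, with no label saying whether the libraries of a condition were separate cultures. The p-values given below therefore measure the spread between these libraries, which may be technical.

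Before S phase, the origin recognition complex, CDC6 and CDT1 load the ring of MCM2 to MCM7 onto DNA. CDC45 and the GINS complex turn the ring into an active helicase, and polymerases held by the PCNA clamp then copy both strands. Most of these genes are known targets of E2F transcription factors, which are released when cyclins and their kinases phosphorylate the retinoblastoma protein. The RNA of these genes is therefore a common measure of how many cells of a culture are cycling. In bulk RNA, fewer cells in S phase and less RNA per cell cannot be told apart.

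The deposited values were RPKM, that is, reads divided by gene length and by a factor for the library. Every RPKM value above 0 corresponded to a whole number of reads, which were recovered, and the libraries held from 30429384 to 41636379 reads. The canonical LXR targets served as the check of the treatment. ABCA1, a cholesterol exporter, was listed at 2.50 to 5.75 RPKM with DMSO and 14.1 to 19.5 RPKM with GW3965, a log2 fold change of 2.29, and ABCG1 and SREBF1 rose by 2.13 and 0.74 (limma adjusted p = 0.00063, 0.000124 and 0.00362). Of 5 epithelial markers, KRT8, KRT18 and KRT19 lay between 29.8 and 174 RPKM in all libraries, EPCAM reached at most 2.16 RPKM and CDH1 lay between 0.152 and 0.518. KLK3, the gene of prostate-specific antigen, was listed at 0 in all 10 libraries. Of 10 markers of fibroblasts, endothelium and blood, PTPRC, CD3E, VWF, CDH5, DCN and COL1A2 stayed at or below 0.0244 RPKM. COL1A1 lay between 0.696 and 1.08 RPKM and PECAM1 between 0.409 and 0.760 RPKM in all libraries, while CD14 reached 0.337 and LUM 0.122 RPKM. The sum of the 10 was 1.74 to 1.98 RPKM with DMSO and 1.17 to 1.98 RPKM with GW3965.

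The promoters of these genes share sequence features that the choice by name did not use. RefSeq promoters of GRCh38.p14, from 250 bases before to 50 bases after the annotated start, were at hand for 33 of the 37 genes, and MCM4, MCM5, GINS4 and CCNE2 were not matched. An E2F site, searched as TTTCCCGC, TTTGGCGC, TTTGCCGC or TTTCGCGC on either strand, was present in 19 of the 33 genes (57.6%), against 3.99% of all 27305 genes with a promoter and 5.36% of protein-coding genes. It was present in 40.0% of 35 other replication genes, 23.8% of 21 other G1/S control genes and 8.00% of 25 G2/M genes. The letters TTTGGCGC and the reverse complement of TTTCGCGC can overlap, so that 1 stretch may hold 2 matches. Of the 28 E2F matches, 21 lay wholly before the start, 3 across it (in CLSPN, GINS3 and MCM3) and 4 after it, and 22 had their first base within 100 bases of it. The windows below show, with the sites inside them in capitals, 1 stretch each from a helicase subunit, the clamp, the activator itself, a licensing factor, a GINS subunit, a chromatin factor and, for contrast, 2 of the genes whose RNA differed least between conditions, POLA1 and TIPIN.
MCM6, chr2:135876444-135876563, minus strand: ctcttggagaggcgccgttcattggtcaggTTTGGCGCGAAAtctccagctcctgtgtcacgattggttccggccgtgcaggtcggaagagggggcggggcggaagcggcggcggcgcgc
PCNA, chr20:5126663-5126692, minus strand: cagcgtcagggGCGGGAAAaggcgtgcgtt
E2F1, chr20:33686396-33686425, minus strand: ctctttcGCGGCAAAaaggaTTTGGCGCgt
CDT1, chr16:88803743-88803772, plus strand: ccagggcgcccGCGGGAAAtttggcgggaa
GINS2, chr16:85688967-85688996, minus strand: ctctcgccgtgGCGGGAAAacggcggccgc
UHRF1, chr19:4909476-4909505, plus strand: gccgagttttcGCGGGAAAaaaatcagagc
POLA1, chrX:24693770-24693799, plus strand: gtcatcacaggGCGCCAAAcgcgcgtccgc
TIPIN, chr15:66356733-66356762, minus strand: ccccgcacggaTTTGGCGCCAAAcgctgcg

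All coordinates are of GRCh38, and sequences run 5′ to 3′ on the strand of the gene. The window of MCM6 covers the 120 bases just before the start and carries a run in which TTTGGCGC and GCGCGAAA overlap. A second such run of MCM6, further from the start, and a site in another promoter of UHRF1 are not shown. In PCNA, CDT1, GINS2 and UHRF1 the capitals are GCGGGAAA, the reverse complement of TTTCCCGC, whereas E2F1 carries GCGGCAAA and TTTGGCGC and POLA1 carries GCGCCAAA. TIPIN has TTTGGCGCCAAA, a palindrome read as a site on both strands. A CCAAT box (CCAAT on either strand) was found in 66.7% of the 33 genes against 39.7% of all genes, 51.4% of the other replication genes, 47.6% of the other G1/S control genes and 80.0% of the G2/M genes. The CHR element (TTTGAA or TTCGAA), typical of genes that peak in G2 and mitosis, was found in 9.09% against 19.5% of all genes, and in 80.0% of 25 G2/M genes. The LXR element of the DR4 type, searched as exact half-sites, was found in 0 of the 33 and in 9 of the 27305 genes (0.033%). A match is a description of the letters, not evidence that a factor binds there.

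All 37 genes passed the filter of a mean of 0.5 RPKM, and none passed the test of GW3965 against DMSO. The test was limma on log2(RPKM + 0.1) over 20402 genes, and 0 of the 37 had an adjusted p below 0.05, against 0.157% of all genes tested (32 genes). At an unadjusted p below 0.05 there were also 0 of 37, against 6.99% of all tested genes, and in none of the 37 did the 5 GW3965 libraries lie apart from the 5 DMSO libraries, against 1.84% of all. The mean was lower with GW3965 in 36 of the 37 genes, against 48.9% of all tested genes, with a median log2 fold change of −0.20 against 0.0034 over all tested genes. The fold changes of the 37 ranged from −0.33 (RRM2) to 0.01 (TIPIN), and every 95% interval held 0, with outer bounds of −0.75 and 0.32. These genes share their libraries and are not independent of each other, so a count of directions is no test. When each library was instead divided by its sum over tested genes, 9 of the 37 were higher, but the median of all tested genes moved to 0.136, and relative to that median 1 was higher. Without DMSO library 1, GW3965 library 1 and GW3965 library 2, an alternative chosen after seeing the data, 28 of the 37 were lower against 44.8% of all genes, with a median of −0.08.

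The genes were high or low in the same libraries. In 33 of the 37 the 3 lowest libraries were DMSO library 1 and GW3965 libraries 1 and 2, against 11.8% of all tested genes. The exceptions were POLA1, CCNE1, CLSPN and TIPIN. These 3 libraries were picked out after the 37 genes were seen to be low there. A high share among the 37 follows from that choice, so the comparison with all tested genes is no test. Both GW3965 libraries 1 and 2 were among the 3 lowest in 37 of 37 genes and DMSO library 1 in 33. DMSO library 4 was the highest in 20 genes. The mean level over the 37 genes, as the deviation of log2(RPKM + 0.1) from each gene's own mean, was −0.29, 0.21, 0.16, 0.26 and 0.11 in DMSO libraries 1 to 5. In GW3965 libraries 1 to 5 it was −0.43, −0.39, 0.17, 0.14 and 0.06. Hence 1 vehicle library and 2 agonist libraries were low, and the remaining 7 libraries of both conditions lay close to each other and overlapped.

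**Figure D1:**
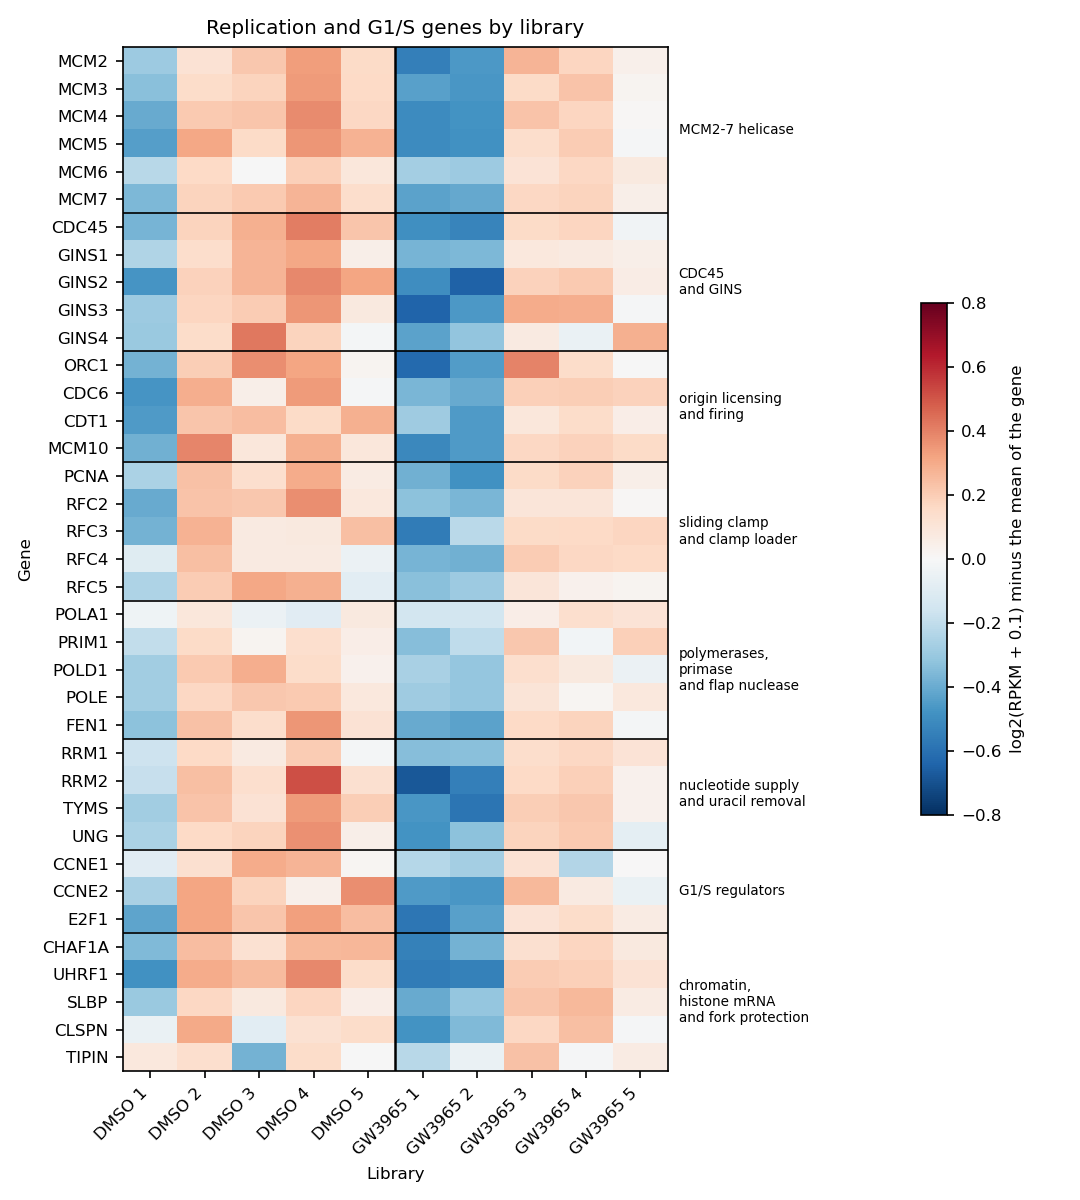
Deviation of log2(RPKM + 0.1) from the mean of each gene over all 10 libraries (colour, red above and blue below the mean) for the 37 genes (rows, by role) in each library (columns). DMSO 1, GW3965 1 and GW3965 2 are blue in nearly all rows, and these are the 3 lowest libraries in 33 of 37 genes.

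The spread between libraries of a condition was larger than the counting of reads gives. The residual SD within conditions was 0.11 to 0.38 on the log2 scale, with a median of 0.28 against 0.18 over all tested genes. Reads per gene and library ran from 89 (CCNE1) to 5256 (MCM3), for which counting alone gives an SD of 0.02 to 0.14 with a median of 0.05, and 35 of the 37 genes had a residual SD above 2 times that value. Without the 3 low libraries, the median residual SD was 0.0961 against 0.15 over all tested genes. These libraries were left out after the 37 genes were seen to be low there, so a smaller spread of the 37 follows from that choice. Of the other measures compared, some also differed in these libraries and some largely did not. CDH1, the gene of E-cadherin, measured 0.462 RPKM in DMSO library 1, 0.518 and 0.498 RPKM in GW3965 libraries 1 and 2, and 0.152 to 0.261 RPKM in the remaining 7. ABCA1 was highest of the DMSO libraries in DMSO library 1 (5.75 RPKM) and highest of the GW3965 libraries in libraries 1 and 2 (19.5 and 18.4 RPKM). The summed epithelial markers were lowest of each condition in DMSO library 1 (197 RPKM, others up to 252) and in GW3965 libraries 1 and 2 (219 and 221 RPKM, others up to 263). Total reads were 34381616 in DMSO library 1, and 30429384 and 36921666 in GW3965 libraries 1 and 2, within the range of the other libraries except for the second of these values, which was the lowest of all. The 7SL RNAs, abundant small RNAs of the signal recognition particle, took 16.4%, 10.5% and 12.3% of the reads there, against 11.7 to 18.2% elsewhere. The part of any of these in the spread of the replication genes was not tested.

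MCM2 to MCM7 form the ring of the helicase, and 0 of the 6 passed the test. MCM5 measured 4.60, 7.79, 6.999, 8.06 and 7.64 RPKM in DMSO libraries 1 to 5 and 4.39, 4.46, 6.93, 7.23 and 6.23 RPKM in GW3965 libraries 1 to 5 (ENSG00000100297, GRCh38 chr22:35400063-35425430, plus strand). DMSO library 1 and GW3965 libraries 1 and 2 lay at a like low level and the other 7 libraries lay above them, so that the conditions overlapped. The means were 7.02 ± 1.40 RPKM with DMSO and 5.85 ± 1.35 RPKM with GW3965 (SD, n = 5 each), with a log2 fold change of −0.26 (SE 0.19, 95% interval −0.67 to 0.15, limma adjusted p = 0.859). MCM3, the most abundant of the 6 per length, had means of 32.3 ± 5.24 RPKM with DMSO and 28.4 ± 6.25 RPKM with GW3965, and MCM7 had 23.1 ± 3.67 RPKM with DMSO and 20.6 ± 4.21 RPKM with GW3965. Log2 fold changes of MCM2, MCM3, MCM4, MCM6 and MCM7 were −0.21, −0.20, −0.23, −0.08 and −0.18. All 6 had the same 3 lowest libraries.

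CDC45 and the 4 GINS subunits complete the helicase, and 0 of the 5 passed the test. CDC45 measured 3.03, 4.48, 4.84, 5.28 and 4.62 RPKM in DMSO libraries 1 to 5 and 2.78, 2.71, 4.40, 4.46 and 3.88 RPKM in GW3965 libraries 1 to 5 (ENSG00000093009, GRCh38 chr22:19479459-19520612, plus strand). Its 3 lowest libraries were the same as those of MCM5, and GW3965 libraries 3 to 5 reached into the range of the DMSO libraries only through DMSO library 1. The log2 fold change of CDC45 was −0.29 (SE 0.18, 95% interval −0.68 to 0.11, limma adjusted p = 0.824). GINS2 measured 3.52, 5.58, 5.95, 6.43 and 6.13 RPKM in DMSO libraries 1 to 5 and 3.45, 3.10, 5.60, 5.69 and 5.13 RPKM in GW3965 libraries 1 to 5 (ENSG00000131153, GRCh38 chr16:85676198-85690073, minus strand). Again DMSO library 1 and GW3965 libraries 1 and 2 were low, and the other libraries of both conditions overlapped. This GINS subunit had the widest spread of the 37 genes, with a residual SD of 0.38, and a log2 fold change of −0.27 (SE 0.21, 95% interval −0.73 to 0.18, limma adjusted p = 0.871). GINS1, GINS3 and GINS4, the remaining GINS subunits, had fold changes of −0.21, −0.21 and −0.18.

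Among the licensing and firing factors, ORC1 is the largest subunit of the origin recognition complex. ORC1 measured 2.53, 3.81, 4.33, 4.15 and 3.37 RPKM in DMSO libraries 1 to 5 and 2.12, 2.40, 4.41, 3.68 and 3.31 RPKM in GW3965 libraries 1 to 5 (ENSG00000085840, GRCh38 chr1:52372829-52404459, minus strand). The highest and the lowest value both came from the GW3965 condition, in libraries 3 and 1. The log2 fold change of ORC1 was −0.21 (SE 0.20, 95% interval −0.66 to 0.24, limma adjusted p = 0.915). CDC6 and CDT1, which load the MCM ring, had log2 fold changes of −0.08 and −0.18, and MCM10, which helps to fire the origin, one of −0.19. None of these 4 passed the test.

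PCNA, the sliding clamp that tethers polymerases to DNA, was the most abundant of the 37 genes per length. PCNA measured 52.7, 74.1, 69.1, 77.4 and 65.8 RPKM in DMSO libraries 1 to 5 and 48.2, 44.9, 70.1, 71.6 and 65.1 RPKM in GW3965 libraries 1 to 5 (ENSG00000132646, GRCh38 chr20:5114953-5126626, minus strand). The 7 higher libraries spanned 65.1 to 77.4 RPKM with both conditions among them. Its means were 67.9 ± 9.55 RPKM with DMSO and 60.0 ± 12.5 RPKM with GW3965 (SD, n = 5 each), a log2 fold change of −0.19 (SE 0.15, 95% interval −0.52 to 0.14, limma adjusted p = 0.875). The clamp is opened by replication factor C. RFC2 measured 8.72, 13.6, 13.5, 15.01 and 12.3 RPKM in DMSO libraries 1 to 5 and 9.19, 8.98, 12.4, 12.4 and 11.6 RPKM in GW3965 libraries 1 to 5 (ENSG00000049541, GRCh38 chr7:74231499-74254458, minus strand). Here DMSO library 1 was the lowest of all, and the log2 fold change was −0.20 (SE 0.15, 95% interval −0.53 to 0.13, limma adjusted p = 0.870). RFC3, RFC4 and RFC5 had fold changes of −0.12, −0.09 and −0.19.

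POLA1, the catalytic subunit of the polymerase that makes primers with primase, had the narrowest spread of the 37. POLA1 measured 3.11, 3.40, 3.08, 2.98 and 3.36 RPKM in DMSO libraries 1 to 5 and 2.86, 2.86, 3.31, 3.50 and 3.45 RPKM in GW3965 libraries 1 to 5 (ENSG00000101868, GRCh38 chrX:24693919-24996986, plus strand). GW3965 libraries 1 and 2 were again the lowest, but DMSO library 4 came next and DMSO library 1 lay above it. The log2 fold change of POLA1 was −0.00013 (SE 0.08, 95% interval −0.17 to 0.17, limma adjusted p = 1.000). FEN1, the nuclease that removes the flaps of lagging-strand fragments, followed the common pattern. FEN1 measured 19.1, 28.2, 26.5, 30.7 and 26.0 RPKM in DMSO libraries 1 to 5 and 18.1, 17.8, 26.8, 27.1 and 23.8 RPKM in GW3965 libraries 1 to 5 (ENSG00000168496, GRCh38 chr11:61792637-61797244, plus strand). Its low libraries were DMSO library 1 and GW3965 libraries 1 and 2, and the conditions overlapped, with a log2 fold change of −0.21 (SE 0.15, 95% interval −0.55 to 0.13, limma adjusted p = 0.870). The primase subunit PRIM1 was at −0.07 on the log2 scale, with 16.2% of its exon bases overlapping other genes on the same strand. POLD1 and POLE, catalytic subunits of the lagging- and leading-strand polymerases, were at −0.16 and −0.16.

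**Figure D2:**
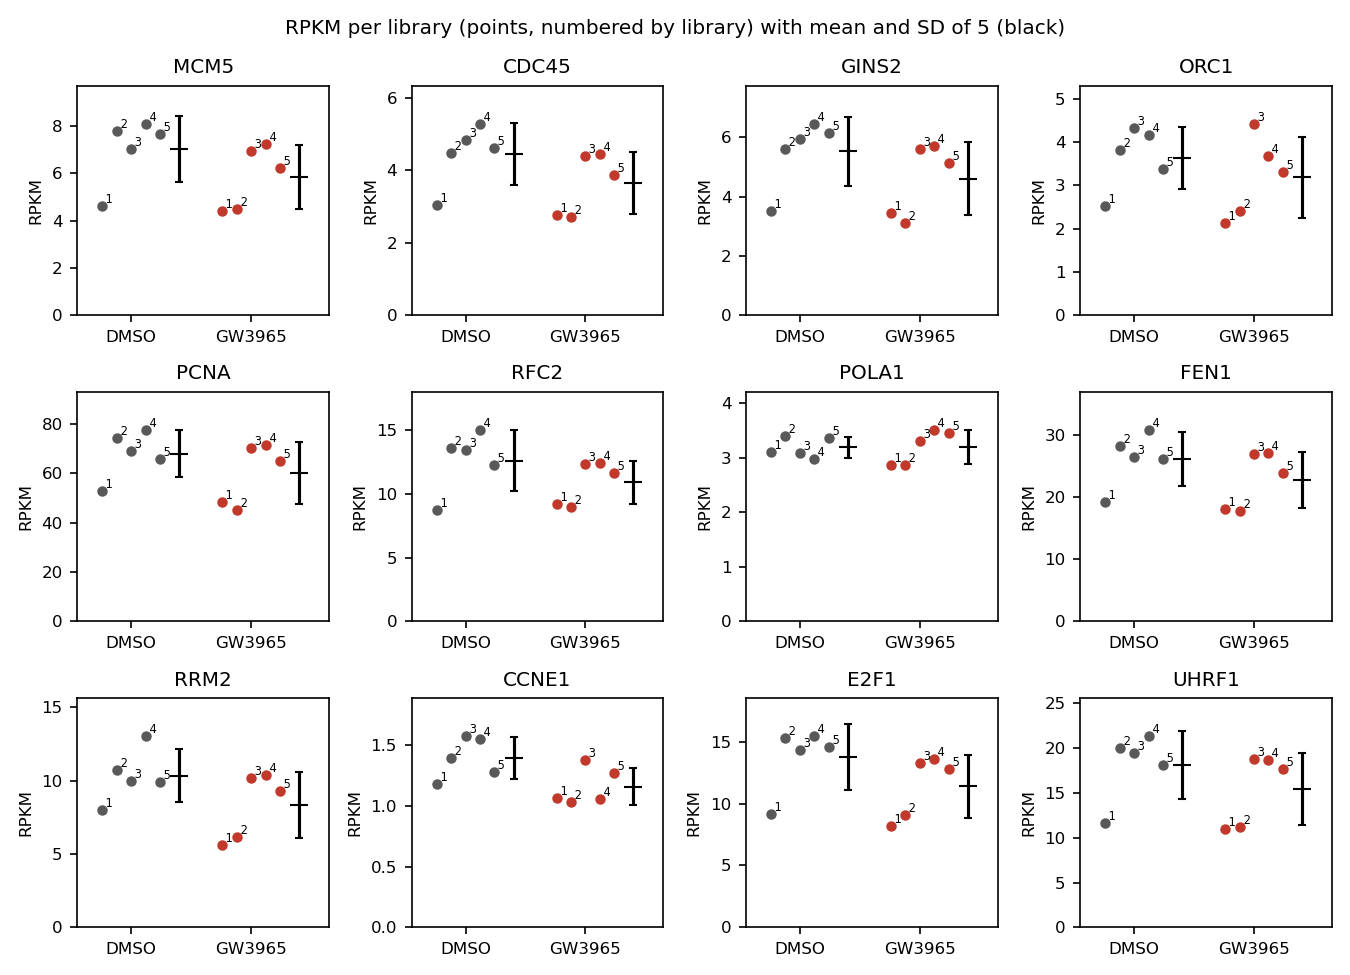
RPKM (vertical axes, each from 0) of 12 of the 37 genes in each library, as points numbered 1 to 5 within DMSO (grey) and GW3965 (red), with the mean and SD of 5 libraries in black. DMSO library 1 and GW3965 libraries 1 and 2 sit below the other 7 in all panels but POLA1 and CCNE1.

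RRM2, the small subunit of ribonucleotide reductase that limits the supply of deoxynucleotides, had the largest fold change of the 37. RRM2 measured 7.98, 10.7, 9.97, 13.0 and 9.92 RPKM in DMSO libraries 1 to 5 and 5.64, 6.18, 10.2, 10.4 and 9.30 RPKM in GW3965 libraries 1 to 5 (ENSG00000171848, GRCh38 chr2:10120698-10131419, plus strand). GW3965 libraries 1 and 2 were the lowest and DMSO library 4 the highest, while GW3965 libraries 3 to 5 lay near DMSO libraries 2, 3 and 5. The log2 fold change was −0.33 (SE 0.19, 95% interval −0.75 to 0.08, limma adjusted p = 0.804). Of the exon bases of RRM2, 20.2% overlap AC007240.1 on the same strand, so reads there could stem from either gene. RRM1, the large subunit, had a fold change of −0.10. TYMS, the thymidylate synthase, was at −0.24, and 46.6% of its exon bases overlap genes on the opposite strand. UNG, the glycosylase that removes uracil from DNA, was at −0.20.

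CCNE1 measured 1.18, 1.39, 1.57, 1.55 and 1.28 RPKM in DMSO libraries 1 to 5 and 1.06, 1.03, 1.37, 1.06 and 1.27 RPKM in GW3965 libraries 1 to 5 (ENSG00000105173, GRCh38 chr19:29811898-29824308, plus strand). CCNE1, the gene of cyclin E1, was the least abundant of the 37, with 89 to 145 reads per library, and in GW3965 library 4 it lay as low as in GW3965 libraries 1 and 2. It had the lowest unadjusted p of the 37 (0.055), with a log2 fold change of −0.25 (SE 0.12, 95% interval −0.50 to 0.01, limma adjusted p = 0.725). E2F1 encodes the activator of many of these genes and is itself an E2F target. E2F1 measured 9.12, 15.3, 14.3, 15.4 and 14.5 RPKM in DMSO libraries 1 to 5 and 8.17, 9.04, 13.2, 13.6 and 12.8 RPKM in GW3965 libraries 1 to 5 (ENSG00000101412, GRCh38 chr20:33675683-33686404, minus strand). Apart from the 3 low libraries, the DMSO values of E2F1 lay above all GW3965 values, whereas with all 10 libraries DMSO library 1 was below GW3965 libraries 3 to 5. The log2 fold change of E2F1 was −0.28 (SE 0.18, 95% interval −0.68 to 0.12, limma adjusted p = 0.840). CCNE2, the gene of cyclin E2, was at −0.26, and 37.1% of its exon bases overlap genes on the opposite strand.

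Of the genes for chromatin assembly, histone RNA and fork protection, UHRF1 reads hemimethylated DNA behind the fork and recruits the maintenance methyltransferase. UHRF1 measured 11.6, 20.04, 19.4, 21.3 and 18.1 RPKM in DMSO libraries 1 to 5 and 11.03, 11.2, 18.8, 18.6 and 17.6 RPKM in GW3965 libraries 1 to 5 (ENSG00000276043, GRCh38 chr19:4903080-4962154, plus strand). The 3 low libraries lay at 11.03 to 11.6 RPKM and the other 7 at 17.6 to 21.3 RPKM, with both conditions in either range. Its log2 fold change was −0.24 (SE 0.21, 95% interval −0.69 to 0.22, limma adjusted p = 0.898), and 21.1% of its exon sequence in windows of 50 bases is also found in other genes, mainly AC112777.1. CHAF1A, a subunit of chromatin assembly factor 1, had a fold change of −0.21. SLBP, which binds the stem loop of histone mRNA, and CLSPN, a fork checkpoint adaptor, were at −0.07 and −0.17. TIPIN, the partner of Timeless in fork protection, had means of 1.92 ± 0.278 RPKM with DMSO and 1.93 ± 0.237 RPKM with GW3965 and was lowest in DMSO library 3 at 1.45 RPKM, with 21.0% of its exon bases overlapping a ribosomal protein pseudogene on the same strand. None of these 5 passed the test.

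**Figure D3:**
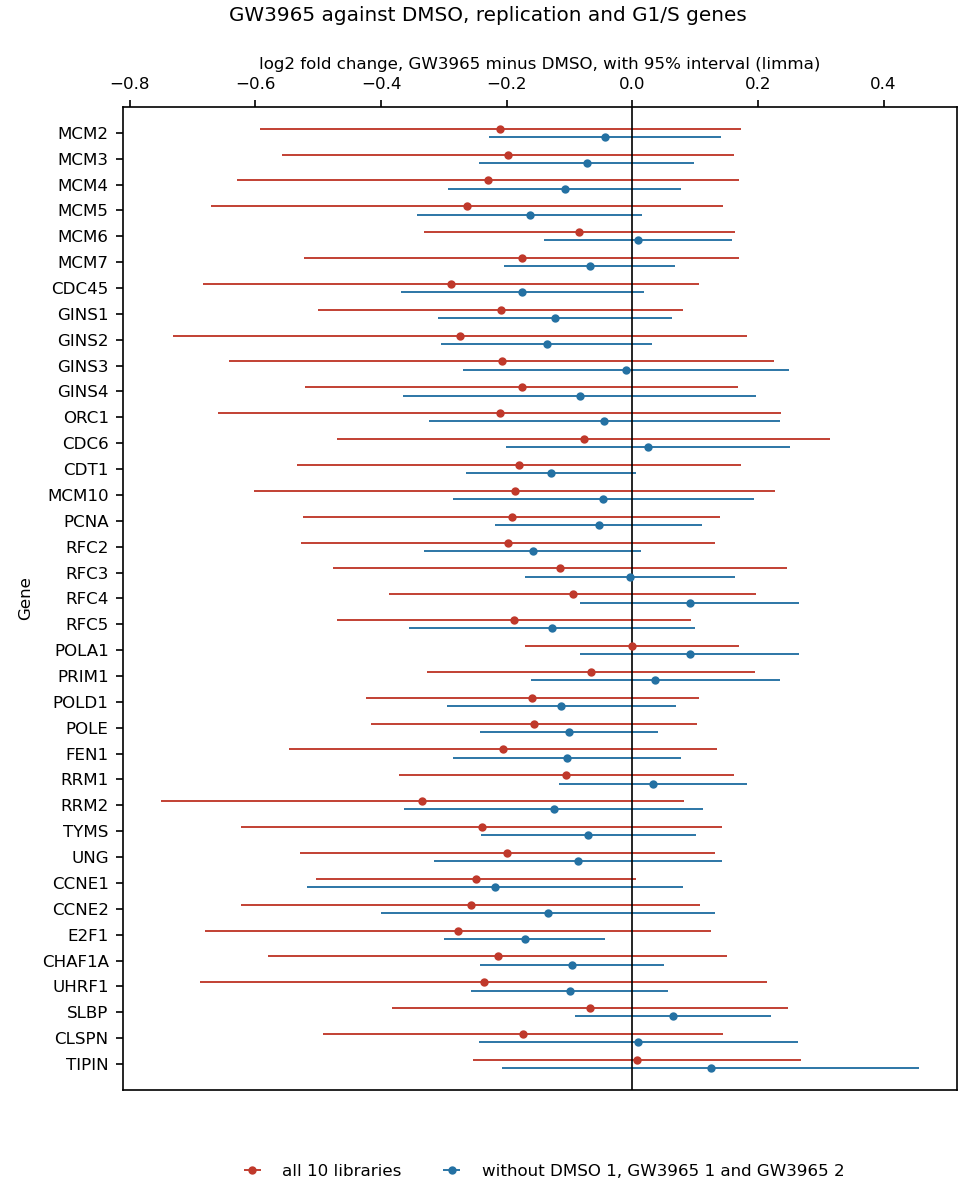
Log2 fold change of GW3965 against DMSO (horizontal axis) with its 95% interval by limma for each of the 37 genes, with all 10 libraries (red) and without DMSO library 1 and GW3965 libraries 1 and 2 (blue). Every red interval holds 0, and of the blue ones E2F1 alone does not, with an adjusted p of 0.365. Without these libraries 10.1% of all tested genes had an unadjusted p below 0.05. These libraries were left out after the 37 genes were seen to be low there, so a smaller median spread behind the blue intervals follows from that choice.

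Because the low libraries were unevenly divided, 1 in the vehicle condition and 2 in the agonist condition, the comparison was repeated without them. They were left out after the 37 genes were seen to be low there. A smaller median residual SD of the 37 (0.0961, against 0.28 with all 10 libraries) follows from that choice. The p-values and overlaps of the 37 are therefore not on a par with those of all tested genes. The repeated comparison held 4 DMSO and 3 GW3965 libraries and 20188 tested genes, of which 0.0892% passed the adjusted threshold. None of the 37 genes did. E2F1 alone of the 37 had an unadjusted limma p below 0.05, against 10.1% of all tested genes. Its log2 fold change was −0.17 with an adjusted p of 0.365. In CDC45, CDT1 and E2F1 all DMSO libraries lay above all GW3965 libraries, 3 of 37 genes against 10.9% of all tested genes. Without DMSO library 1 alone, which leaves both low GW3965 libraries in place, 14 of the 37 genes had an unadjusted p below 0.05, against 8.89% of all tested genes. CDC45, CDT1 and E2F1 again did not overlap between conditions, against 3.65% of all, and the lowest adjusted p of the 37 over this and the other alternatives was 0.365. The count at an unadjusted p below 0.05 also moved with the model when all 10 libraries were kept. It was 2 with voom, against 7.24% of all tested genes, and 5 with the replicate number as a block, against 8.81%.

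Other cell cycle genes were low in the same libraries, by less on average. Of 44 other replication genes that passed the filter (RNASEH2A did not), 0 passed the test, with 37 lower and 7 higher and a median of −0.11. They ranged from −0.30 (ASF1B, a histone chaperone) to 0.17 (POLD4, a small polymerase subunit). HELLS, a chromatin remodeller, was the only one of them with an unadjusted p below 0.05 (−0.25, adjusted p = 0.701). Of 25 other genes of G1/S control, 0 passed, with 17 lower and 8 higher and a median of −0.05. E2F2, an activating E2F, was at −0.36 and CDK6, a cyclin D kinase, at 0.35 (adjusted p = 0.603). CDK6 was the only one of the 25 with an unadjusted limma p below 0.05, against 6.99% of all tested genes. E2F5, at 0.09, was the only one whose conditions did not overlap, with GW3965 above DMSO, against 1.84% of all tested genes. Of 30 G2/M and mitosis genes that passed the filter (NUSAP1 did not), 0 passed the test, with 24 lower and 6 higher, a median of −0.07, and a range from −0.21 (BIRC5, survivin) to 0.06 (KIF23, a motor of cytokinesis). Without the 3 low libraries the G2/M genes turned to 20 higher and 10 lower with a median of 0.01. The other replication genes were then 15 higher and 29 lower (median −0.03) and the G1/S control genes 11 higher and 14 lower (median −0.02), and 0 genes of these lists passed the test.

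In DMSO library 1 and GW3965 libraries 1 and 2, the mean deviation of the other replication genes was −0.14, −0.21 and −0.24, that of the G1/S control genes −0.11, −0.17 and −0.17, and that of the G2/M genes −0.14, −0.23 and −0.25. DMSO library 4, the highest for the replication genes at 0.26, was below the mean for the G2/M genes at −0.04. All 4 lists had the same 3 lowest libraries. Of the other replication genes, 26 of 44 had exactly these as their 3 lowest, against 11.8% of all tested genes. So had 12 of the 25 G1/S control genes and 15 of the 30 G2/M genes. These counts are a description and no test.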

How the data were processed

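Total RNA was depleted of ribosomal RNA and sequenced as single reads of 50 bases, although the sample records name polyA RNA. The authors deposited RPKM values, 1 column per library and all 10 mapped by title. Per the labels' processing notes the tools were bcl2fastq 2.20.0.422, cutadapt, HISAT2 2.1.0, HTSeq 0.11.2 and DESeq2 1.22.2 with hg38, whereas the methods name a mouse genome. The identifiers are human. The strand setting of the counting is not given in the sources used here, so the counts of genes overlapping on opposite strands may be affected. Reads were recovered as the whole multiples behind the values (100% within a relative 1e-06), and 15119 genes were 0 throughout. The factor of each library matched its median-of-ratios size factor. No pair of libraries was near-identical (chi-square per degree of freedom 7.47 to 84.4).

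From these values limma 3.58.1 in R 4.3.3 (trend, two-sided, Benjamini-Hochberg over 20402 genes at or above 0.5 RPKM on average, threshold 0.05) was run on log2(RPKM + 0.1), a scale that understates changes of low genes. The members and lists were chosen with earlier results of these data known. The procedure was tested on simulated data. Values were given per library for the gene of each role with the largest fold change and for those with extreme level or spread. All members were tested, so the exact permutation test planned for filtered genes was not needed. Gene positions and overlaps came from GENCODE 29 and promoters from RefSeq. Counting SDs cover counting error only, since reads carry no molecular identifiers. Alternatives were other pseudocounts, filters and scalings, the replicate block, no trend, library weights, voom on recovered reads and leaving libraries out.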

Additional observations from a re-analysis of the deposited data

Results flagged for a closer look

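Among the 37 genes, 12 of 74 groups of 5 libraries had 1 library far from the rest, where chance flags about 5% of groups. Since the genes vary together these are not independent. The share over all tested genes is not given here, so whether the count is particular to these genes was not tested. The measure is the gap of the extreme library to its nearest neighbour divided by the range of the group, with a limit of 0.71. It was taken on the log2 scale of the test and not on RPKM, and so were all ratios below. Taken from RPKM, the ratios of the DMSO libraries for MCM3 and MCM5, among others, were lower and fell under the limit. The flags therefore depend in part on the scale. In 11 genes DMSO library 1 was the low one, with a ratio of 0.861 for E2F1, 0.817 for CDT1, 0.792 for MCM7, 0.769 for CHAF1A, 0.765 for GINS2, 0.748 for MCM5, 0.740 for SLBP, 0.738 for POLE, 0.728 for UHRF1, 0.726 for MCM4 and 0.713 for MCM3. For TIPIN it was DMSO library 3, with a ratio of 0.716. No group of GW3965 libraries passed this limit, where 2 of the 5 libraries were low. Whether the cells of these libraries differed was not tested.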

How the results depend on the processing

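No gene of the 37 passed the adjusted threshold in any of 21 alternatives, and their median log2 fold change stayed below 0 (−0.30 to −0.06). Genes with an unadjusted p below 0.05 numbered 1 with quantile normalization (against 8.59% of all genes) and 1 without a trend (against 6.87%). They numbered 2 with voom on recovered reads (against 7.24%) and 1 without the 3 low libraries (against 10.1%). With the replicate block they numbered 5 (CDC45, GINS1, RRM2, UNG and E2F1, against 8.81% of all genes). When 1 library was left out they numbered 0 to 14 (14 without DMSO library 1), against 5.80 to 8.89% of all genes. Genes higher with GW3965 numbered 2 with a pseudocount of 1, 3 with library weights, 0 with voom, 9 without the 3 low libraries and 0 to 6 when 1 library was left out. Scaling by the sum gave 9, but it moved the median of all genes to 0.136, and 1 of the 37 lay above that median. It moved the medians of the other replication, other G1/S control and G2/M genes above 0, to 0.0248, 0.0829 and 0.0680, all below that of all genes. The G2/M median was also above 0 without the 3 low libraries, at 0.0134. Groups without overlap numbered 3 without the 3 low libraries, against 10.9% of all genes. When 1 library was left out they numbered 0 to 3, against 2.38 to 3.65% of all genes. The median residual SD was 0.0961 without the 3. POLA1, at −0.00013, turned to 0.000508 with a pseudocount of 1, 0.133 with scaling by the sum, 0.0105 with library weights, 0.0913 without the 3 low libraries and −0.0336 to 0.0373 when 1 was left out. Genes called over the whole table numbered 21 with no filter, 16 with the replicate block, 20 without a trend, 56 with library weights, 65 with voom, 18 without the 3 low libraries and 17 to 38 when 1 was left out. The cause was not tested for these. Same-numbered libraries correlated at −0.14 to 0.16 in their deviations and differently numbered ones at −0.20 to 0.16. Whether the replicate numbers mark pairs cannot be told from such weak correlations. The 3 libraries left out together were chosen after seeing the data. No alternative varied the depth. The 95% intervals allow changes of −0.75 to 0.32 on the log2 scale.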
